A study of Mus musculus with 4 samples.

Results

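The Fc-gamma and paired immunoglobulin-like receptor genes of mouse myeloid cells were followed in osteoclast progenitors with and without Ptip. The group was taken by name and comprised Fcgr1, Fcgr2b, Fcgr3 and Fcgr4, which encode receptors for the constant part of IgG, Fcgrt, which encodes the neonatal Fc receptor heavy chain, and Pirb, Lilrb4a and Lilr4b of the paired and leukocyte immunoglobulin-like receptors. All 8 genes were found among the 18276 genes of the table. Bulk poly(A) RNA was sequenced from cells sorted out of fresh bone marrow as osteoclast progenitors, that is, negative for B220, CD3 and Mac-1 and positive for CD115. The Ptip_KO group held 2 libraries from mice with floxed Ptip alleles and the Mx-1Cre transgene, and the WT group held 2 libraries from mice with wild-type Ptip and the same transgene. Both groups therefore carried Mx-1Cre, an interferon-inducible Cre that acts in many cell types and not only in these progenitors, and both were of the B6;129 strain. The labels name no age, and do not state how the Cre was induced. The design text calls the replicates independent without naming separate animals, so the p-values below measure the spread between these libraries.

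Receptors of this kind work in pairs of opposite sign. Activating Fc-gamma receptors (Fcgr1, Fcgr3 and Fcgr4) signal through the immunoreceptor tyrosine-based activation motif (ITAM) of a partner, the FcR gamma chain encoded by Fcer1g, and inhibitory receptors (Fcgr2b, Pirb and Lilrb4a) carry immunoreceptor tyrosine-based inhibition motifs (ITIMs) that recruit phosphatases such as SHP-1 and SHIP-1. In osteoclast precursors, ITAM signals that pass through Fcer1g and Tyrobp are the co-stimulus that acts beside RANK. Lilr4b, also called gp49A, resembles Lilrb4a, also called gp49B, but lacks the inhibitory motifs, and the neonatal Fc receptor carries IgG inside cells instead of signalling.

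Several of these genes have copies that are near-identical over all or part of their sequence, which limits what a count per gene can tell. Positions are on mm10 (GRCm38) from GENCODE M21, and all 8 are annotated as protein-coding. Fcgr2b (chr1:170958617-170976547, minus strand), Fcgr4 (chr1:171018920-171029761, plus strand) and Fcgr3 (chr1:171051174-171064935, minus strand) lie together on chromosome 1. Lilr4b (chr10:51480632-51486703) and Lilrb4a (chr10:51490956-51496611) lie side by side on the plus strand of chromosome 10. Pirb (chr7:3711409-3720391) and Fcgrt (chr7:45092990-45103851) are on the minus strand of chromosome 7, and Fcgr1 (chr3:96282909-96293969) is on the minus strand of chromosome 3. The coding sequences of Lilr4b and Lilrb4a were 95.8% identical over 912 bases, and those of Fcgr2b and Fcgr3 were 96.5% identical over 509 bases, the part that encodes most of the extracellular domains. The most alike 150 bases of each pair are shown because a short read from them hardly tells the copies apart. They are spliced coding sequence of the reference strain, numbered from the first coding base, and capitals mark the positions at which the copies differ.
Lilr4b, coding bases 269 to 418: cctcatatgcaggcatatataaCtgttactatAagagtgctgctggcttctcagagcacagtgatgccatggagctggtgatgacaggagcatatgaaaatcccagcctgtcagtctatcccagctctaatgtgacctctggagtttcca
Lilrb4a, coding bases 269 to 418: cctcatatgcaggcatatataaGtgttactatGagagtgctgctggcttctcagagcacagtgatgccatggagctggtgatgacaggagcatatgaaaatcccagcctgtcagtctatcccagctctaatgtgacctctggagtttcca
Fcgr2b, coding bases 256 to 405: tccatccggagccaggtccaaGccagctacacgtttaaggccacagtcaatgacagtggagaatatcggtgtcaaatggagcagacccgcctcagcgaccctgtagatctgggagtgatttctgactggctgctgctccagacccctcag
Fcgr3, coding bases 241 to 390: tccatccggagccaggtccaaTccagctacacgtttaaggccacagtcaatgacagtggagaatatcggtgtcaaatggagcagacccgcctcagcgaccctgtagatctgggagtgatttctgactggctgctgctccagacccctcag

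The first pair differs at 2 of these bases and the second pair at 1. Over the whole coding sequence, 21.2% of all 50-base windows of Lilrb4a and 19.7% of those of Lilr4b also occurred in the other gene. The shares were 17.0% for Fcgr2b and 21.99% for Fcgr3. Pirb had the most shared sequence, with 52.1% of its 50-base windows in at least 1 of 9 other genes. No 50-base window of Fcgr1, Fcgr4 or Fcgrt occurred in the coding sequence of another gene. How reads that match several genes were counted is not given in the sources used here, so values of Lilrb4a, Lilr4b, Fcgr2b, Fcgr3 and Pirb are uncertain to that extent. The annotation also holds a protein-coding gene on the same strand, Gm49339, that spans Lilr4b and Lilrb4a and shares 1846 exon bases with Lilrb4a and 122 with Lilr4b. On the opposite strand, Gm40645 shares 131 exon bases with Lilrb4a, and Gm38204 shares 155 with Fcgr2b. Gm40645 has values in the table, while Gm49339 and Gm38204 have none. Reads of Gm49339, on the same strand, may affect the values whether or not counting used strand. Whether it did is not given, so reads of Gm40645 and Gm38204 may also affect the values. The alleles that these mixed-strain mice carry were not examined.

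Values are CPM (reads of a gene scaled to the authors' effective library size), and whole reads could be recovered from them. The 4 libraries held between 67592972 and 77773478 reads. A gene without a read could thus stand as high as 3 reads, which is 0.0380 to 0.0428 CPM and covers counting error only. Paxip1, which encodes PTIP, read 5.10 and 3.73 CPM in Ptip_KO against 106 and 103 CPM in WT, as the genotype labels say. The labels do not say which exons were removed. Csf1r, which encodes CD115, stood between 606 and 825 CPM in all 4 libraries. Itgam, which encodes the Mac-1 alpha chain, was still present at 35.1 to 42.1 CPM, while the T cell gene Cd3e did not exceed 0.190 CPM. Of 11 sort and progenitor markers, 9 were tested, with a median log2 difference of −0.16, and 1 was called: Kit, a progenitor receptor, was lower, with 14.4 and 16.1 CPM in Ptip_KO against 49.5 and 73.1 CPM in WT. WT replicate 2 stood apart in other cell types' genes: its 8 neutrophil markers summed to 3348 CPM, against 1819 CPM in WT replicate 1 and 1037 and 691 CPM in the Ptip_KO libraries.

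All 8 receptor genes had a lower mean in Ptip_KO, but only Lilrb4a and Fcgr2b, both inhibitory receptors, fell by a test across all genes. Lilrb4a was 2.97-fold and Fcgr2b 1.74-fold higher in WT. A gene was called when the Benjamini-Hochberg adjusted p of limma on log2(CPM + 1) was under 0.05. By that rule 2 of the 8 genes were lower in Ptip_KO, beside 3.86% of the 12357 tested genes. None of the 8 was higher, beside 2.43% of tested genes, and none was higher at an unadjusted p under 0.05 or by edgeR or DESeq2. In 7 of the 8, all but Pirb, both Ptip_KO libraries were below both WT libraries, which also held for 27.3% of tested genes. The median log2 difference over the 8 was −0.71, beside 0.0032 over all tested genes, of which 6113 were below 0. In bulk RNA, fewer cells of a type and less RNA per cell cannot be told apart.

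**Figure D1:**
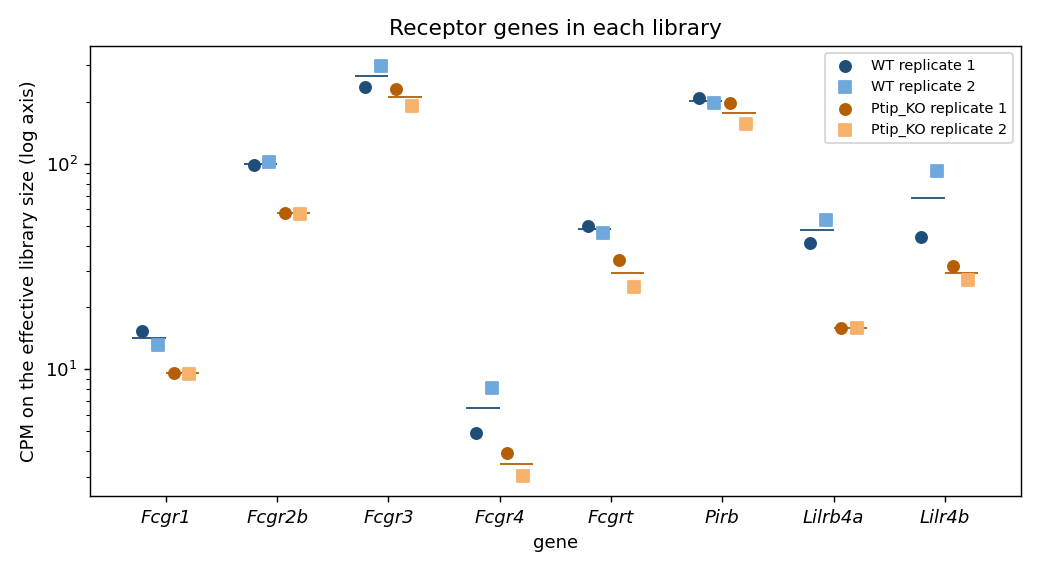
CPM of the 8 receptor genes (log axis) in each of the 4 libraries; horizontal lines are the means of the 2 libraries of a group. The Ptip_KO points lie below the WT points for every gene except Pirb, and the WT libraries of Lilr4b are far apart, at 44.2 and 91.8 CPM.

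Among the inhibitory receptors, Lilrb4a had the largest difference of the 8 genes. It read 15.9 CPM in both Ptip_KO libraries, 41.3 CPM in WT replicate 1 and 53.4 CPM in WT replicate 2. The Ptip_KO libraries were nearly equal and far below both WT libraries. Lilrb4a fell by 1.502 on the log2(CPM + 1) scale (SE 0.141, 95% interval −1.85 to −1.15, limma adjusted p = 0.00747). These values rest on 1116 to 4211 reads per library.

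Fcgr2b, the only inhibitory receptor of the Fc-gamma group, read 57.7 and 56.9 CPM in Ptip_KO replicates 1 and 2, and 98.2 and 102 CPM in WT replicates 1 and 2. The groups did not overlap, and each group's libraries lay within a few CPM of each other (57.3 ± 0.584 against 99.96 ± 2.49 CPM, SD, n = 2). Its log2 difference was −0.79 (SE 0.0819, 95% interval −0.99 to −0.59, limma adjusted p = 0.00992). Pirb, the third inhibitory receptor and one that binds class I MHC molecules, read 198 and 156 CPM in Ptip_KO against 208 and 197 CPM in WT. Ptip_KO replicate 1 lay between the WT libraries, so the groups overlapped. The log2 difference of Pirb was −0.20 (SE 0.132, limma adjusted p = 0.419), with a 95% interval of −0.53 to 0.13 that includes no difference.

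The activating Fc-gamma receptors did not pass the test. Fcgr3, the low-affinity activating IgG receptor, read 230.3 and 191 CPM in Ptip_KO against 235 and 297 CPM in WT, so that Ptip_KO replicate 1 was close to WT replicate 1. The log2 difference of Fcgr3 was −0.33 (95% interval −0.70 to 0.04, limma adjusted p = 0.257). Fcgr1, the high-affinity receptor, read 9.60 and 9.55 CPM in Ptip_KO against 15.4 and 13.2 CPM in WT. Its groups were apart, with a log2 difference of −0.53 (SE 0.124, 95% interval −0.83 to −0.22, limma adjusted p = 0.0688). Fcgr4, which binds IgG2 subclasses, was the least abundant, with 3.90 and 3.04 CPM in Ptip_KO against 4.91 and 8.08 CPM in WT. WT replicate 2 was the highest library for Fcgr4 by far, and the log2 difference of −0.72 had an SE of 0.239 and an adjusted p of 0.147 by limma.

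Lilr4b, the copy of Lilrb4a without inhibitory motifs, read 31.7 and 27.2 CPM in Ptip_KO, 44.2 CPM in WT replicate 1 and 91.8 CPM in WT replicate 2. Both WT libraries were above both Ptip_KO libraries, but they differed from each other by more than the group means did (68.0 ± 33.7 against 29.5 ± 3.16 CPM, SD, n = 2). The log2 difference was −1.09 (SE 0.325, 95% interval −1.90 to −0.29, limma adjusted p = 0.118). Fcgrt, whose product protects IgG from degradation, read 34.05 and 25.1 CPM in Ptip_KO against 49.95 and 46.0 CPM in WT. Its groups did not overlap, and the log2 difference of −0.70 (SE 0.157, 95% interval −1.08 to −0.31) had an adjusted p of 0.0619 by limma.

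**Figure D2:**
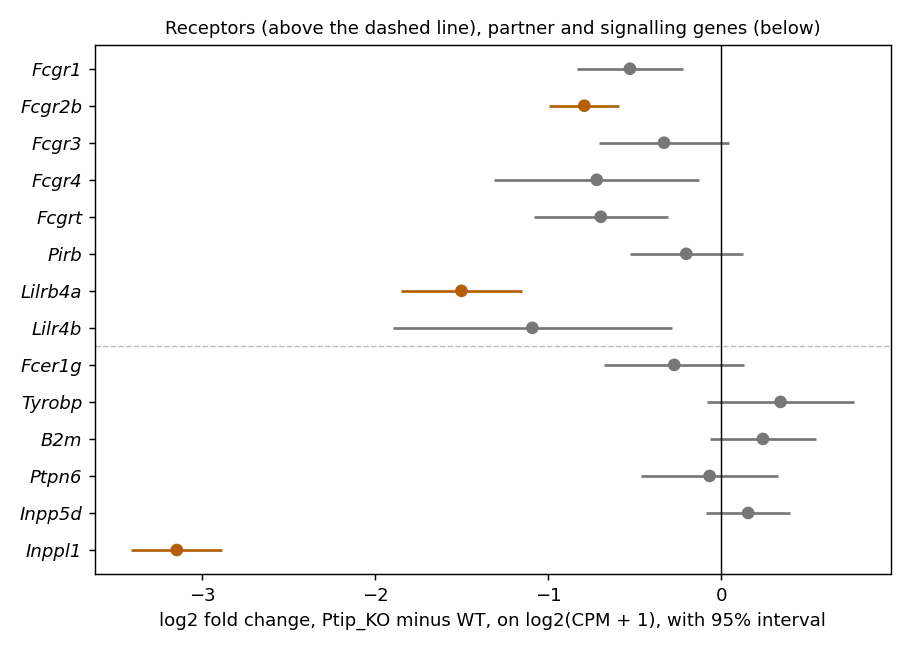
Log2 differences (Ptip_KO minus WT, on log2(CPM + 1)) with 95% intervals from limma for the 8 receptors, above the dashed line, and for partner and phosphatase genes, below it. Orange marks an adjusted p under 0.05, reached by Fcgr2b (−0.79), Lilrb4a (−1.502) and, among the lower genes, Inppl1 (−3.15).

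Divided by the length of the annotated exons, levels spanned a wide range within the group. This length joins all annotated exons of a gene, such as 5.79 kilobases for Fcgr2b and 1.736 kilobases for Fcgr3. Transcripts in these cells may be shorter, so the order is approximate. In WT, Fcgr3 stood first with 153 ± 25.2 CPM per kilobase (SD, n = 2), followed by Pirb with 45.2 ± 1.75, Fcgrt with 22.8 ± 1.32 and Fcgr2b with 17.3 ± 0.430. Lilr4b (12.5 ± 6.19 CPM per kilobase) and Lilrb4a (9.06 ± 1.64) came next, and their WT libraries overlapped. Fcgr1 (5.52 ± 0.604 CPM per kilobase) and Fcgr4 (5.17 ± 1.78) were last and overlapped as well. The order of the first 5 was the same in Ptip_KO, from Fcgr3 at 121 to Lilr4b at 5.42 CPM per kilobase. Lilrb4a, with 3.05 CPM per kilobase in both Ptip_KO libraries, was there below Fcgr1, with 3.71 and 3.69. In WT it was above Fcgr1, with 7.90 and 10.2 against 5.94 and 5.09 CPM per kilobase.

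Ratios of CPM within a library, not divided by exon length, were used to set activating against inhibitory receptors. Their sizes are therefore not ratios of transcript abundance, while gene length cancels in the differences between groups. With 2 against 2 libraries no exact permutation p can be under 0.333. Fcgr3 was 3.99 and 3.36 times Fcgr2b in Ptip_KO and 2.39 and 2.92 times Fcgr2b in WT. Both Ptip_KO ratios were above both WT ratios, a mean log2 difference of 0.47 (exact permutation p = 0.333, two-sided, the smallest possible). The ratio of Fcgr1 to Fcgr2b was also apart, at 0.166 and 0.168 in Ptip_KO and 0.157 and 0.130 in WT (log2 difference 0.23, exact permutation p = 0.333), but the difference was 0.09 without WT replicate 2 and 0.37 without WT replicate 1. Fcgr4 to Fcgr2b overlapped, with 0.0676 and 0.0534 in Ptip_KO and 0.05001 and 0.0794 in WT. Lilr4b to Lilrb4a was 1.99 and 1.71 in Ptip_KO and 1.07 and 1.72 in WT, so WT replicate 2 lay within the Ptip_KO range. Fcgr3 relative to its signalling partner Fcer1g was 0.830 and 0.837 in Ptip_KO and 0.677 and 1.11 in WT, with WT libraries on both sides of the Ptip_KO ones.

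Since reads of shared sequence may be assigned to any of the copies, copies were also summed and refitted with limma. A sum does not recover reads that counting may have left out. Lilrb4a plus Lilr4b read 47.7 and 43.2 CPM in Ptip_KO against 85.5 and 145 CPM in WT, a log2 difference of −1.28 (SE 0.242, adjusted p = 0.0422). The sum thus passed the threshold with both WT libraries above both Ptip_KO libraries, although it did not pass with the libraries scaled to a common sum (−1.23, adjusted p = 0.0792), with a robust variance prior (−1.28, 0.0655) or without Ptip_KO replicate 2 (−1.21, 0.0689), so that its adjusted p ran from 2.09e-08 to 0.0792. Fcgr2b plus Fcgr3 read 288 and 248 CPM in Ptip_KO against 333 and 399 CPM in WT, a log2 difference of −0.45 (SE 0.130, adjusted p = 0.113).

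The copies of Pirb include paired receptors of the activating kind (PIR-A), which pair with Fcer1g. Which of the copies encode such receptors was not examined, and Gm15922 is annotated as a polymorphic pseudogene. By transcript sequence, 7 genes were 95.2% to 97.3% identical to Pirb, namely Gm14548, Gm15448, Gm15922, Gm15925, Gm15931, Lilra6 and Pira2, and 6 of them could be tested. All 6 had negative differences with a median of −0.93, and 2 were called lower by limma. Lilra6 read 30.5 and 21.5 CPM in Ptip_KO against 118 and 84.7 CPM in WT (log2 difference −1.92, SE 0.218, adjusted p = 0.0122). Gm14548 read 20.9 and 11.2 CPM in Ptip_KO against 76.6 and 51.5 CPM in WT (log2 difference −1.96, SE 0.312, adjusted p = 0.0267). In both genes every Ptip_KO library was under every WT library, whereas the libraries of Pirb overlapped. Pira2, with 21.8 and 15.7 CPM in Ptip_KO against 51.0 and 31.1 CPM in WT, did not pass (log2 difference −1.07, adjusted p = 0.0750). The sum of Pirb and the 7 copies, formed after these values were seen, read 289.9 and 216 CPM in Ptip_KO against 484 and 387 CPM in WT, a log2 difference of −0.79 (SE 0.179, limma adjusted p = 0.0631).

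How far 1 library carried the values differed between the genes. Fcgr2b and Lilrb4a were called in all 15 alternatives run for each, with adjusted p-values up to 0.0368 and 0.0248, respectively. Pirb was called in none of 15, with log2 differences between −0.37 and −0.03. For Lilr4b, WT replicate 2 set the size: the log2 difference was −1.61 without WT replicate 1 and −0.57 without WT replicate 2. Both of these fits called Lilr4b lower, with adjusted p-values of 1.49e-07 and 0.00825, whereas its adjusted p in the other alternatives reached 0.251. The log2 difference of Fcgr4 was −1.03 without WT replicate 1, where it was called, and −0.41 without WT replicate 2. That of Fcgr3 was −0.50 without WT replicate 1, where it was called, −0.16 without WT replicate 2 and −0.20 without Ptip_KO replicate 2. With a group reduced to 1 library, that library is assumed to vary like the other group.

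The count of receptors called lower also differed between these fits, as did the share of all tested genes. Without WT replicate 1 it was 6 of 8, all but Fcgr1 and Pirb, beside 7.52% of tested genes. Without WT replicate 2 it was 5 of 8 (Fcgr1, Fcgr2b, Fcgrt, Lilrb4a and Lilr4b), beside 8.43%. It was 3 of 8 without Ptip_KO replicate 1, which added Fcgrt, beside 2.61%, and 2 of 8 without Ptip_KO replicate 2, beside 2.47%. On recovered reads, the quasi-likelihood test of edgeR called the same 2 genes lower, beside 3.37% of tested genes. DESeq2 called 4 of 8 lower (Fcgr1, Fcgr2b, Fcgrt and Lilrb4a), beside 9.11%. Fcgrt was called in 5 of its 15 alternatives, Fcgr1 in 3 of 15, Fcgr3 in 1 of 15 and Fcgr4 in 1 of 14.

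**Figure D3:**
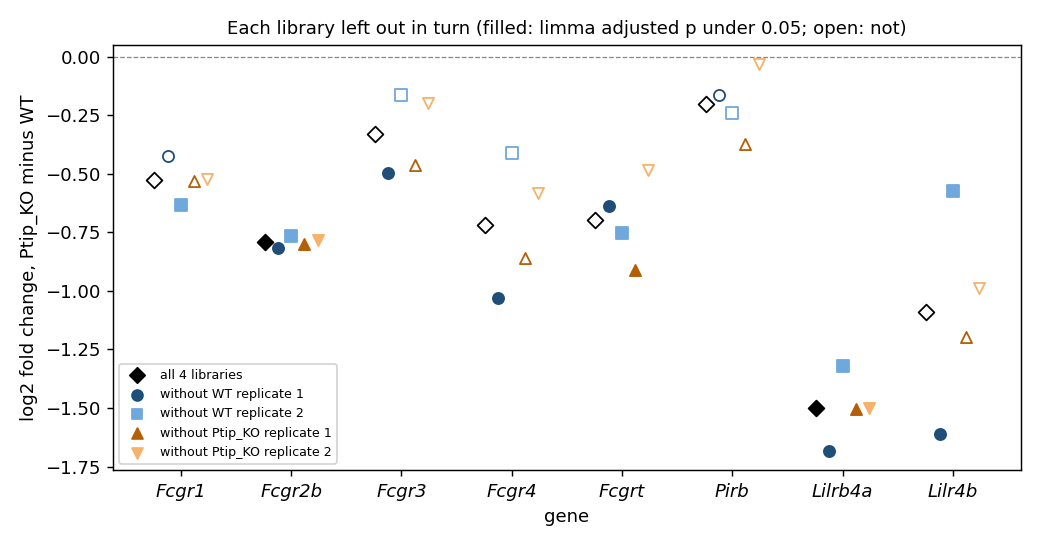
Log2 difference (Ptip_KO minus WT) of each receptor gene with all 4 libraries and with each library left out in turn; filled symbols have a limma adjusted p under 0.05. Fcgr2b and Lilrb4a are filled throughout, Pirb is open throughout, and Lilr4b moves between −1.61 and −0.57 with the WT library left out.

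Of the genes through which these receptors signal, few passed the test. Of 31 listed genes of activating Fc receptor and ITAM signalling, 29 were tested, 1 was lower and none was higher by limma, with a median log2 difference of 0.03. At an unadjusted p under 0.05, 2 were higher and 3 lower, edgeR called none higher, and DESeq2 called 1 higher. The gene that fell was Vav2, a guanine nucleotide exchange factor, with 21.7 and 20.9 CPM in Ptip_KO against 42.9 and 39.3 CPM in WT (log2 difference −0.92, adjusted p = 0.0111). Fcer1g, the shared gamma chain, read 278 and 229 CPM in Ptip_KO against 347 and 266 CPM in WT, with overlapping groups. Tyrobp, the adaptor DAP12 and the most abundant gene of the list in CPM, read 840 and 672 CPM in Ptip_KO against 672 and 522 CPM in WT (log2 difference 0.34, adjusted p = 0.297). Syk, the kinase that both adaptors recruit, differed by 0.07 (95% interval −0.19 to 0.33).

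All 12 genes of ITIM signalling were tested, of which 1 was higher and 1 lower, with a median of −0.06. Inppl1, which encodes the phosphoinositide phosphatase SHIP-2, had 13.4 and 15.4 CPM in Ptip_KO against 140.5 and 129.9 CPM in WT (log2 difference −3.15, limma adjusted p = 0.000383), and Phox2a overlaps it on the opposite strand. Dok2, an adaptor that restrains Ras signalling, rose from 8.05 and 9.29 CPM in WT to 31.8 and 30.8 CPM in Ptip_KO (log2 difference 1.74, limma adjusted p = 0.00397). The phosphatases that inhibitory receptors are best known to recruit did not pass: Ptpn6 (SHP-1), the most abundant in CPM, differed by −0.07 (95% interval −0.46 to 0.33) and Inpp5d (SHIP-1) by 0.16 (95% interval −0.09 to 0.40).

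Other immunoglobulin-like and Fc receptors of leukocytes were listed beside the 8 genes. Of 51 listed, 36 were in the table and 31 were tested, 1 was higher and 7 were lower, with a median log2 difference of −0.09. In the Pilr family, inhibitory and activating members both fell. Pilra, the inhibitory member, read 9.16 and 4.37 CPM in Ptip_KO against 27.5 and 23.4 CPM in WT (log2 difference −1.84, limma adjusted p = 0.0287). Its activating partners Pilrb1 (−1.62, 0.0112) and Pilrb2 (−1.69, 0.0112) fell as well, in log2 difference and adjusted p. Cd300ld (log2 difference −2.16), Trem1, an amplifier of myeloid inflammation (−1.48), Ceacam1, a cell adhesion receptor with inhibitory motifs (−1.14), and Treml4 (−1.14) were the others that fell. Pilrb1 and Pilrb2 are close paralogs that can share reads, and the calls of Trem1 and Treml4 were lost in some alternatives, with limma adjusted p-values up to 0.0504 and 0.0969. Trem2, which signals through Tyrobp, rose from 38.6 and 40.3 CPM in WT to 104 and 87.1 CPM in Ptip_KO (log2 difference 1.25, limma adjusted p = 0.00658). The most abundant in CPM was Sirpa, the inhibitory receptor for CD47, with a difference of 0.18 (95% interval −0.32 to 0.68) and overlapping groups.

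Among 17 ligands and chaperones, all of them tested, 1 was higher and 3 were lower, with a median log2 difference of −0.04. Fn1, which encodes fibronectin, a ligand of gp49B, read 188 and 86.0 CPM in Ptip_KO against 3015 and 1195 CPM in WT (log2 difference −3.89, limma adjusted p = 0.0187). Angptl2, which encodes a secreted ligand of Pirb, read 6.70 and 4.52 CPM in Ptip_KO against 27.4 and 25.98 CPM in WT (log2 difference −2.08, limma adjusted p = 0.00638). In both ligand genes the groups were far apart, although the WT libraries of Fn1 differed widely. The immunoglobulin gene Ighg3, at 0.828 and 3.63 CPM in Ptip_KO against 11.4 and 16.1 CPM in WT, fell as well (log2 difference −2.32, limma adjusted p = 0.0419). H2-Q4, a class I gene, was higher in Ptip_KO with a log2 difference of 0.69 (limma adjusted p = 0.0479). B2m, the light chain of class I molecules and of the neonatal Fc receptor and the most abundant of the list in CPM, differed by 0.24 (95% interval −0.06 to 0.55). The calls of Fn1, Ighg3 and H2-Q4 were lost in some alternatives, with adjusted p-values up to 0.0724, 0.100 and 0.169, and the class I and immunoglobulin genes have close relatives that can share reads.

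**Figure D4:**
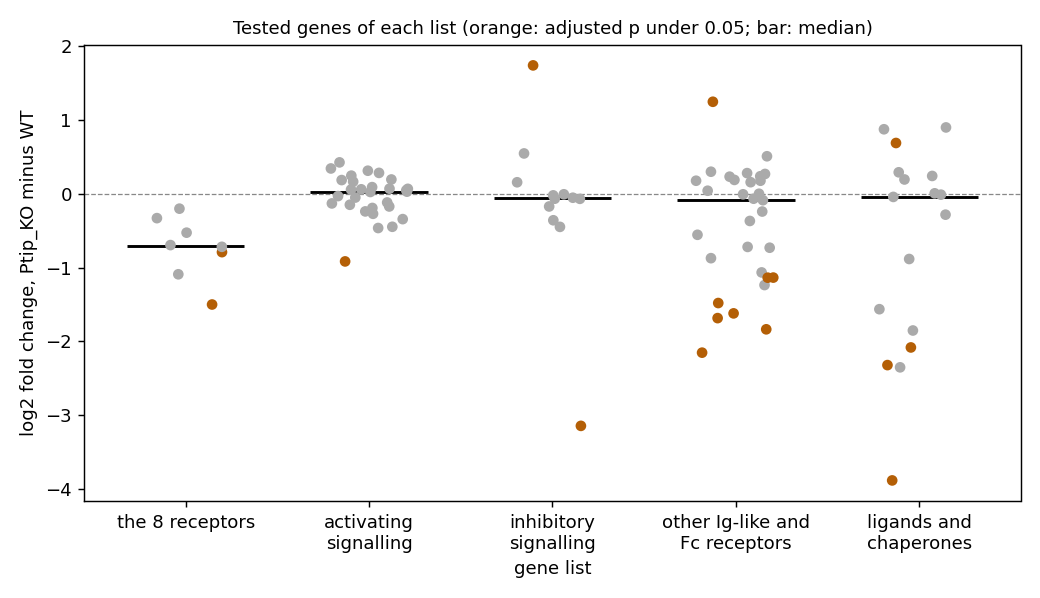
Log2 differences (Ptip_KO minus WT) of the tested genes of each list; each point is a gene, orange points have a limma adjusted p under 0.05, and black bars are medians. The 8 receptors have a median of −0.71, while the medians of the 4 other lists lie between −0.09 and 0.03.

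Some markers of macrophages, dendritic cells and erythroid cells were also called lower, and the part of other cell types in these differences was not tested. Of 11 macrophage markers, 9 were tested and 7 were lower by limma, and the list summed to 24.3 and 28.8 CPM in Ptip_KO and to 138 and 117 CPM in WT. Adgre1, which encodes F4/80, read 8.67 and 6.79 CPM in Ptip_KO against 90.5 and 51.7 CPM in WT, and the complement genes C1qa, C1qb and C1qc were under 0.5 CPM in Ptip_KO and between 3.03 and 3.79 CPM in WT. All 8 neutrophil markers had negative differences with a median of −1.54. None was called by limma or edgeR, 4 were lower by DESeq2, beside 9.11% of tested genes, and 6 had an unadjusted limma p under 0.05. The neutrophil and erythroid lists were highest in WT replicate 2, as were Fcgr2b, Fcgr3, Fcgr4, Lilrb4a and Lilr4b, while Fcgr1, Fcgrt and Pirb were highest in WT replicate 1. Of 9 dendritic cell markers, 7 were tested and 4 were lower, with sums of 89.5 and 62.9 CPM in Ptip_KO against 178 and 162 CPM in WT. Of 6 erythroid markers 5 were lower by limma and 2 by edgeR, with sums of 623 and 810.03 CPM in Ptip_KO against 1566 and 3983 CPM in WT. None of 7 basophil and mast cell markers was called by limma, edgeR or DESeq2, or had an unadjusted limma p under 0.05, and of 8 B cell markers 3 were tested, with a median of −0.30. Of these Cd79b was higher by limma but not by edgeR. DESeq2 called 1 B cell marker higher and 1 lower, beside 780 higher and 1126 lower of the 12357 tested genes. The B cell list summed to 803 and 759 CPM in Ptip_KO against 1028 and 926 CPM in WT. Of 7 natural killer cell markers, 2 were tested and none was called by these tools or had an unadjusted p under 0.05.

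Genes around the receptors were compared by position, with the 3 tested genes on each side of each locus. None of these 30 neighbours at 5 loci was called by limma or edgeR. DESeq2 called 3 higher and 5 lower, beside 780 higher and 1126 lower of the 12357 tested genes. At an unadjusted limma p under 0.05, 3 were higher and 10 lower. The share of all tested genes at that unadjusted p is not given, here or for the lists above, so such counts lack a background. Beside the chromosome 1 cluster, Fcrla had a log2 difference of −0.73 (adjusted p = 0.197) and the others lay between −0.16 and 0.25. On the side of Pirb that holds its copies, Gm15922 (−0.80), Gm15448 (−0.75) and Pira2 (−1.07) were negative without passing the test, and on the other side Mboat7 (−0.34) and Tsen34 (−0.24) were negative and Rps9 (0.10) was not. Next to Lilr4b and Lilrb4a, the nearest tested gene, Gm46224, had a log2 difference of 0.71 (limma adjusted p = 0.0827), and Gm46223, farther away, had one of −1.63 (0.0572), so neither passed.

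**Figure D5:**
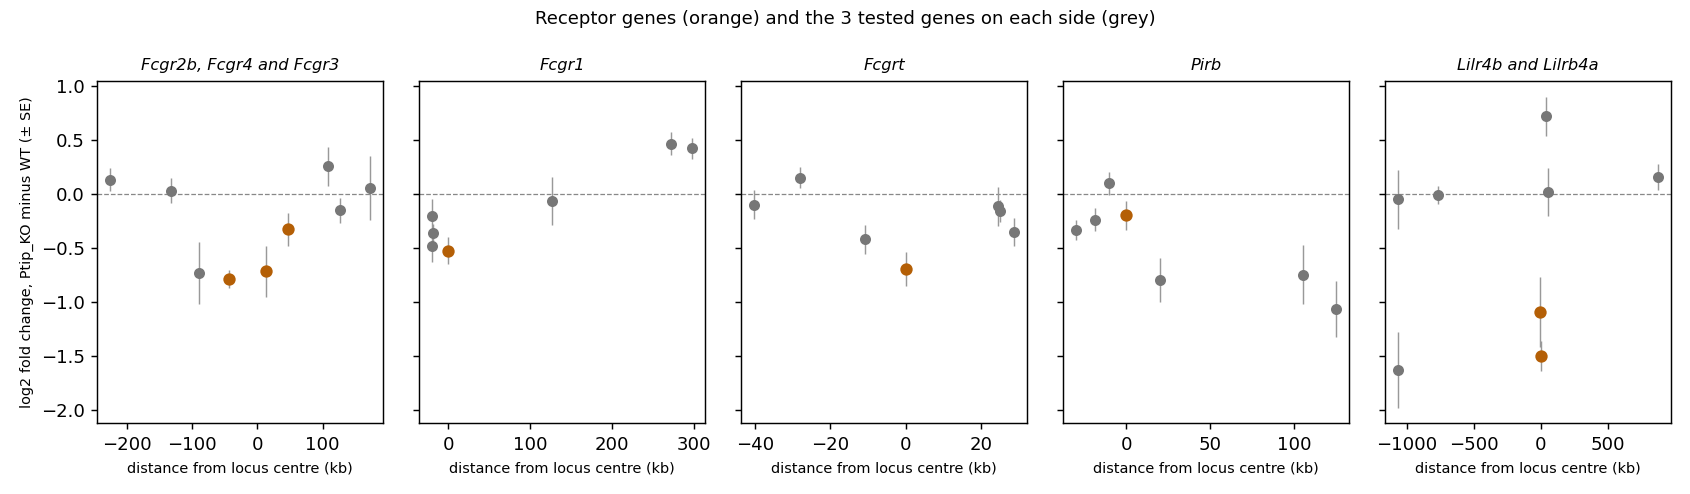
Log2 difference (Ptip_KO minus WT, with limma SE) against distance in kilobases from the centre of each locus, for the receptor genes (orange) and the 3 tested genes on each side (grey). Neighbours of the chromosome 1 receptors other than Fcrla lie near 0, and the neighbours on 1 side of Pirb lie between −0.75 and −1.07.

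For each receptor, the 2 tested genes with the most similar values over the 4 libraries were named, by the Euclidean distance between log2(CPM + 1) values after subtracting each gene's mean. Nearest to Fcgr2b were Tnfrsf14 (distance 0.0373) and Acsl1 (0.0536), nearest to Lilrb4a were Il17rb (0.0913) and Nrp2 (0.103), and nearest to Fcgr1 were Cry1 (0.0292) and Pigf (0.0293). Vsig10l and Ndst1 were nearest to Fcgr3, Rhoc and Ipcef1 to Fcgr4, Cd177 and Timm10 to Fcgrt, Trappc5 and Hist1h1e to Pirb, and Ighv5-17 and Wfdc21 to Lilr4b. The offset of 1 CPM flattens the differences of low genes. Il17rb, for example, read 0.394 and 0.428 CPM in Ptip_KO against 2.41 and 3.78 CPM in WT, and Rhoc did not exceed 1.84 CPM. Similarity over 4 libraries was common for some genes and rare for others: 859 genes lay within a distance of 0.2 of Pirb and 243 of Fcgr1, but 16 of Lilrb4a, 4 of Fcgr4 and 2 of Lilr4b.

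Promoter sequence from RefSeq on GRCm38.p6 was available for 7 of the 8 genes, all but Lilrb4a. It came as 300-base windows that hold the annotated start near their end. The windows were searched on both strands for GAGGAA, the core that the myeloid factor PU.1 binds, for the longer form GAGGAAGT, which contains it, and for TTCNNNGAA, the element bound by STAT proteins. Of 27025 promoters of this length, 28.3% held GAGGAA, 3.28% held GAGGAAGT and 8.47% held TTCNNNGAA. The windows of Fcgr1, Fcgr2b and Fcgr3 are shown because 1 of them, Fcgr2b, belongs to a gene that fell and has neither motif, while Fcgr1 has both and Fcgr3 has 1 PU.1 core. They are written along the gene's own strand, and capitals mark matches.
Fcgr1, chr3:96293920-96294219, minus strand: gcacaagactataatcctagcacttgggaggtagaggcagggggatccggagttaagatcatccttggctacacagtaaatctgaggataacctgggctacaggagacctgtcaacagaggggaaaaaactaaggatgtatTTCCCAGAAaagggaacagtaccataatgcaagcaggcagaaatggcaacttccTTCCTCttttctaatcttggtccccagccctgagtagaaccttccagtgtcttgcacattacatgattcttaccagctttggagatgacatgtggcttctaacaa
Fcgr2b, chr1:170976022-170976321, minus strand: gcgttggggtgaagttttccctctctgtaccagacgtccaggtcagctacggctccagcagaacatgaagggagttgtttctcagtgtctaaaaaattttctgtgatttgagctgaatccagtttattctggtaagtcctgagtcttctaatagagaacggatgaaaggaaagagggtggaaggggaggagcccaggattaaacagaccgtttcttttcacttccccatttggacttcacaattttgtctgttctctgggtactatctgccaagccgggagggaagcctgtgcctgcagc
Fcgr3, chr1:171059354-171059653, minus strand: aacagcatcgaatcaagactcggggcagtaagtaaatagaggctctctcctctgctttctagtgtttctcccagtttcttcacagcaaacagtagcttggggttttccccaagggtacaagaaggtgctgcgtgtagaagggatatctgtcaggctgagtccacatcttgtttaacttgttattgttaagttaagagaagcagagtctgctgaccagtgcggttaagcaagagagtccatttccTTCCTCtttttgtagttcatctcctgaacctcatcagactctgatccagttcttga

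In Fcgr1 the STAT element began 109 bases and the PU.1 core, on the opposite strand, 55 bases before the start. In Fcgr3 the PU.1 core began 6 bases before the RefSeq start, which lies inside the longer gene that GENCODE annotates. The RefSeq start of Fcgr2b also lies inside its longer GENCODE gene, and its window does not reach the GENCODE start. The absence of motifs in Fcgr2b therefore covers the RefSeq window only. Fcgr4 held a PU.1 core 22 bases before its start as part of the longer form, Pirb held 3 cores and 1 longer form, and Lilr4b held a STAT element 104 bases before its start. Fcgrt, like Fcgr2b, held none of the motifs in this window. Windows without a PU.1 core thus belonged to Fcgr2b, which fell, and to Fcgrt and Lilr4b, which did not pass the test. Lilrb4a, the other receptor gene that fell, had no window to search.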

How the data were processed

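Per the labels' protocols, a stranded Illumina kit was used on poly(A) RNA. The tools in the submitters' processing notes are edgeR 3.8.6, HTSeq 0.6.0 and TopHat2 2.0.10, with the build mm10. Which tool did what, and whether counting used strand, is not given in the sources used here. The authors deposited a signal per gene, CPM on edgeR's effective library size, so totals differ between libraries. The WT column numbered otherwise than its sample title was matched to WT replicate 2 by the sample's description. All values were whole multiples of 1 read within 0.01 read (100%). Symbols were found for 18249 of 18276 genes, and 92.2% of identifiers had the same version in GENCODE M21.

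The test was limma 3.58.1 (R 4.3.3) with a trended variance prior, on log2(CPM + 1) of the 12357 genes that reached 1 CPM in 2 or more libraries, two-sided, with Benjamini-Hochberg adjustment over all tested genes. Fold changes on this scale understate the change of low genes. The quasi-likelihood test of edgeR 4.0.16 and DESeq2 1.42.0 on recovered reads, other pseudocounts, filters, scalings, a replicate block and leaving out each library were alternatives. Near-identical copies were transcripts with at least 95% identity over at least 200 bases and 50% of the shorter one (BLAST 2.17.0). Fcgr2b and Fcgr3 do not meet this rule, being alike over part of the coding sequence only, and their whole values were summed because of that part. The coding identities given above are also from BLAST, over the longest alignment. MAFFT 7.526 aligned whole coding sequences to pick the 150-base stretches. Its identity was 96.0% over 910 aligned bases for Lilr4b and Lilrb4a, and 78.4% over 795 for Fcgr2b and Fcgr3. The receptors, the lists and the tests were chosen with earlier results of these data known. Named were all 8 receptors, Paxip1, up to 6 called genes in each direction and the most abundant gene of each list, the 2 nearest patterns and 3 tested neighbours on each side. In the list of other receptors all 7 genes called lower were named, past that limit. The 7 copies of Pirb follow from the sequence search.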

Additional observations from a re-analysis of the deposited data

How the results depend on the processing

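Genes called higher and lower, 300 and 477 as reported, numbered 691 and 1030 with the replicate block and 780 and 1126 by DESeq2, and ran from 92 to 837 and from 299 to 1015 when each library was left out. Receptors called lower (2) numbered 4 with the block and 4 by DESeq2, and 2 to 6 with a library left out. In activating signalling, higher calls (0) numbered 4 with the block, 1 by DESeq2 and 0 to 2 with a library left out, and lower calls (1) numbered 2, 3 and 1 to 5. In ITIM signalling, higher calls (1) ranged from 1 to 2, and lower calls (1) numbered 2 with the robust prior, 3 with the block, 2 by edgeR, 3 by DESeq2 and 1 to 3 with a library left out. In other receptors, higher calls (1) numbered 2 with the block, 2 by DESeq2 and 1 to 4 with a library left out, and lower calls (7) ranged from 6 to 11. Among ligands, higher calls (1) numbered 0 with a pseudocount of 5, 0 with a common sum, 0 by edgeR, 5 by DESeq2 and 0 to 3 with a library left out, and lower calls (3) numbered 1 with the robust prior, 7 with the block and 4 to 7 with a library left out.

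The difference of Lilrb4a plus Lilr4b ran from −1.66 to −0.90 with a library left out and was −1.23 with a common sum and −1.28 with the robust prior, and passed the threshold in neither. Fcgr2b plus Fcgr3 ran from −0.57 to −0.32 with a library left out and was called without WT replicate 1. Pirb plus its 7 copies ran from −0.999 to −0.58 and was called with the block (−0.79) and in each fit that left out 1 library except the one without Ptip_KO replicate 2. The log2 ratio difference of Fcgr4 to Fcgr2b changed from −0.07 to 0.32 with a pseudocount of 5, to −0.40 without WT replicate 1, 0.26 without WT replicate 2, −0.24 without Ptip_KO replicate 1 and 0.10 without Ptip_KO replicate 2. Leaving out WT replicate 1 gave −0.42 for Fcgr3 to Fcer1g (−0.06 as reported) and 0.10 for Lilr4b to Lilrb4a (0.44), and leaving out WT replicate 2 gave 0.30 and 0.78. The cause was not tested for any of these. All 8 receptors kept a negative difference in every alternative.

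The labels do not say whether replicates of the same number share anything more, and the deposited column of WT replicate 2 is numbered otherwise. The differences between replicates 1 and 2 in the 2 groups correlated across genes with r = 0.33, over 2 pairs. What this correlation reflects was not tested. With the replicate block, Fcgr1 (adjusted p = 0.0494) and Fcgrt (0.0257) were called beside Fcgr2b and Lilrb4a. Stability was counted over 24 genes: the receptors, Paxip1 and the called genes of the signalling, other-receptor and ligand lists. Of their 358 values, 333 kept their direction and side of the threshold, 12 gained and 13 lost a call, and none changed direction. The copies of Pirb, the cell type markers and the neighbours are not in this count. Scaling to a common sum moved the median of all genes to 0.05.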
